A study of Arabidopsis thaliana with 6 samples.

Results

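The genes described here are the 222 Arabidopsis thaliana genes whose array probe has 1 locus and whose description in the deposited array-element table contains "Pectin lyase-like superfamily" or "pectin methylesterase". They are 222 of 28324 genes on the array and are read by 260 of its 43603 probes, and 6 further probes of such a description that match several loci were left out. By the wording of the descriptions, 98 of the genes are pectin lyase-like, 43 are pectin methylesterases, 76 are inhibitors of invertase or pectin methylesterase, and 5 are pseudogenes. Of the 43 methylesterases, 34 were placed by the family name alone, written without the word "protein" that ends the inhibitors' text. The genes of the 2 groups also differ in length: the median gene span in RefSeq was 2529 bp for the methylesterases and 930.5 bp for the inhibitors. The text does not say which pectin lyase-like genes are polygalacturonases and which are pectate lyases. It also places QRT1 and PME5, which are methylesterases by name, among the pectin lyase-like genes, where they are counted below. Other genes of that group may be methylesterases too, which the text does not tell, so the groups do not cleanly part these enzymes.

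Homogalacturonan, the main pectin of the primary cell wall, is a chain of galacturonic acid that is made in the Golgi and secreted in a methylesterified form. Pectin methylesterases remove the methyl groups in the wall, and the freed stretches can either be cross-linked by calcium, which stiffens the wall, or be cut by polygalacturonases and pectate lyases, which loosens it. Pectin methylesterase inhibitors are small proteins that bind and block the enzyme, and many methylesterases carry an inhibitor-like domain of their own ahead of the catalytic part. In a growing leaf the balance of these activities is known to bear on cell expansion and cell adhesion.

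RNA was measured on 1-colour Agilent arrays in plants with the ore15-1D allele, plants with the ore15-2 allele and wild-type Col, with 2 arrays of independent biological samples per genotype. The material was the third or the fourth leaf at 4 days after its emergence. The plants were 13 days on soil in days of 16 h light and nights of 8 h, and were harvested 5 h into the light period. ORE15 (AT1G31040) encodes a PLATZ-family protein, and ore15-1D is known as a dominant, activated allele and ore15-2 as a loss-of-function allele. Each mutant is 1 allele, and the sources used here do not give the number of independent lines or of plants pooled in a sample. Below, a signal is given as a multiple of the 75th percentile of its array, so that it can be compared between arrays for 1 gene but not between genes. The ORE15 probe gave 6.68 and 6.30 on the ore15-1D arrays, 0.0120 and 0.00287 on the ore15-2 arrays, and 0.0334 and 0.0361 on the Col arrays (replicate 2 of ore15-2 not well above background). The sources used here do not give whether the probe lies in the part affected by ore15-2. Slide 1 held the ore15-1D arrays with Col replicate 1, and slide 2 the ore15-2 arrays with Col replicate 2.

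On each array 67.8% to 73.0% of the probe spots were well above background and none was saturated. The 75th percentile itself reached 1255 and 1344.7 on ore15-1D arrays, 812.8 and 748.8 on the ore15-2 arrays, and 928.9 and 861.6 on the Col arrays, with no overlap between genotypes. Leaf mesophyll markers were well above background on all 6 arrays, and of 7 meristem genes STM, WUS, CLV3, KNAT1 and CUC2 were so on none, CUC1 on 2 and CUC3 on all 6. Between the 2 arrays of a genotype the median absolute log2 difference over the tested pectin genes was 0.151 in ore15-1D, 0.222 in ore15-2 and 0.237 in Col. Over all tested genes it was 0.085 in ore15-1D, 0.164 in ore15-2 and 0.148 in Col.

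Fewer of the pectin genes gave a measurable signal in these leaves than of all genes on the array. The test took in the genes that were well above background on both arrays of a genotype, in 1 genotype or more. This held for 106 of the 222 genes (47.7%), against 71.6% of all genes on the array. It held for 54.1% of the pectin lyase-like genes, 58.1% of the methylesterases and 34.2% of the inhibitors. Of the 222 genes, 85 were well above background on all 6 arrays, 96 on none, and 20 on some without passing. Among the 106 tested genes, 12 passed only through ore15-2, 3 only through Col and 2 only through ore15-1D, and such a gene had to be high in that genotype. The genes not well above background on any array included QRT2 and ADPG1, polygalacturonases known from pollen separation and from anther and pod opening, PGX1 (AT3G26610), a polygalacturonase of cell expansion, the methylesterase PME2, and the inhibitors PMEI2 and PMEI5. PME17 (AT2G45220), a methylesterase known from pathogen responses, was well above background on 1 array, that of ore15-2 replicate 1.

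In ore15-1D leaves the genes that changed were mostly lower than in Col. Of the 106 tested genes, 36 fell, 5 rose and 65 did not pass the test (limma on all 6 arrays, Benjamini-Hochberg adjusted p below 0.05 over all genes, two-sided). That is 34.0% lower and 4.72% higher among the pectin genes, against 22.2% lower and 18.3% higher among the 20289 genes tested on the array. The share changed in either direction was 38.7%, close to the 40.5% over all genes. Falls of at least 1 on the log2 scale numbered 14 among the pectin genes (13.2%), against 9.42% of all tested genes, and rises of that size numbered 3 (2.83%), near the 2.66% of all genes. The median log2 change was -0.424 over the tested pectin genes and -0.016 over all tested genes. Among the 85 genes well above background on all 6 arrays, 32 fell (37.6%) and 5 rose, against 22.0% lower among all genes measured so, with a median log2 change of -0.382 against 0.006. In bulk leaf RNA, fewer cells of a type and less RNA per cell cannot be told apart.

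The excess of falls over rises was present in the brighter and in the dimmer part of the genes. Split at a mean signal of 0.498 over the 6 arrays, a division chosen after the data were seen, 17 of the 53 brighter pectin genes fell (32.1%) and 4 rose, against 21.3% lower and 19.6% higher among all brighter genes. Of the 53 dimmer pectin genes, 19 fell (35.8%) and 1 rose, against 23.4% lower and 16.7% higher among all dimmer genes. The median log2 change of the pectin genes was -0.216 in the brighter part and -0.684 in the dimmer part, against 0.026 and -0.11 over all genes of these parts.

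Against the Col array of the same slide alone the median over the tested pectin genes was -0.316, and over all tested genes 0.001. The count of calls moved with the setting. Slide as a fixed block and leaving out Col replicate 2 gave equal counts and are not separate checks. With slide as a fixed block 21 genes passed, 3 higher and 18 lower. These are 2.83% and 17.0%, against 7.71% and 11.3% of all genes at that setting. Without ore15-1D replicate 1, ore15-1D replicate 2 or Col replicate 2 fewer genes passed than in the main fit. The median log2 changes of the pectin genes were then -0.52, -0.357 and -0.316. With normexp background correction and quantile normalization, 8 genes were higher and 28 lower, and 8 were higher and 27 lower in the authors' deposited table. With normexp background correction and the 75th percentile no gene of the array passed, at 15 of the 106 pectin genes with an unadjusted p below 0.05.

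**Figure D1:**
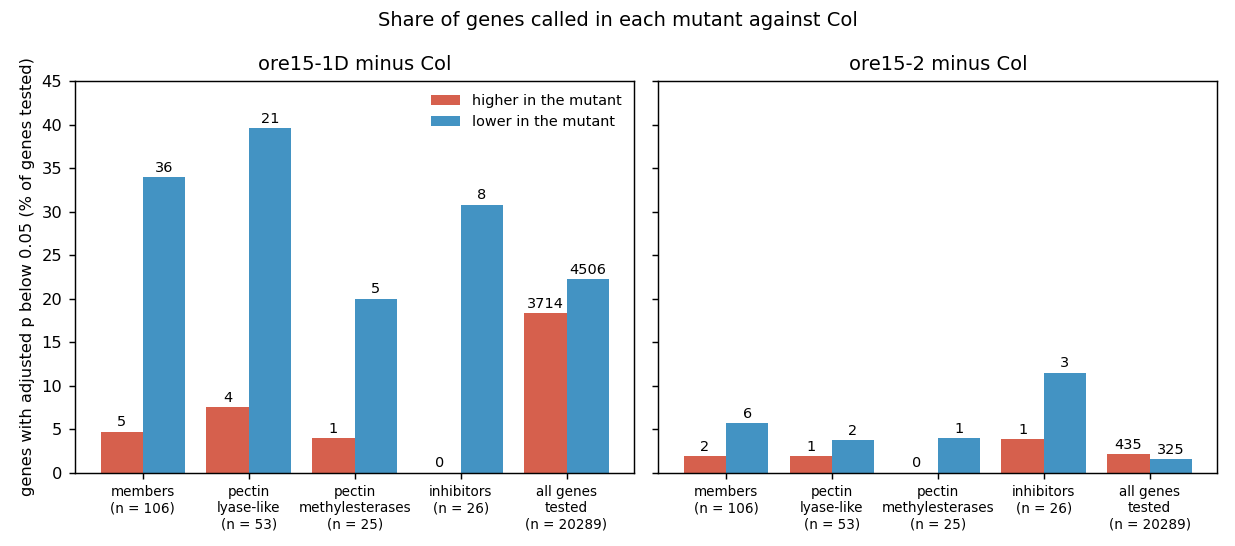
Share of tested genes with an adjusted p below 0.05 (y axis, percent) in ore15-1D minus Col (left) and ore15-2 minus Col (right), for the pectin genes, their 3 larger families and all genes tested; red bars are genes higher in the mutant, blue bars genes lower, and the number of genes stands above each bar. In ore15-1D 34.0% of the pectin genes are lower and 4.72% higher, against 22.2% and 18.3% of all genes.

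Of the pectin lyase-like genes, a group named for a fold shared by enzymes that cut the pectin backbone and by some methylesterases, 21 of 53 tested fell in ore15-1D and 4 rose, with a median log2 change of -0.476. That is 39.6% lower and 7.55% higher, against 22.2% and 18.3% of all tested genes, and 47.2% in either direction, against 40.5%. AT3G07010 gave 0.476 and 0.529 on the ore15-1D arrays, against 1.39 and 1.41 on the Col arrays. AT3G16850 gave 0.577 and 0.555 in ore15-1D, against 1.49 and 1.57 in Col. Both were low on both ore15-1D arrays, far outside the spread of the Col arrays. Their log2 changes were -1.48 ± 0.10 (SE, n = 2 arrays per genotype; limma adjusted p = 0.00388) and -1.44 ± 0.10 (SE, n = 2; limma adjusted p = 0.00389), and both were past the threshold with slide as a block too (adjusted p = 0.025 for each). The probe of AT3G07010 lies on chromosome 3, positions 2213126 to 2213185, and that of AT3G16850 on chromosome 3, positions 5750814 to 5750873 (TAIR10).

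AT4G23820 gave 5.88 and 5.32 in ore15-1D, against 12.1 and 13.8 in Col, a log2 change of -1.20 ± 0.11 (SE). AT2G43870 gave 0.0153 and 0.0180 in ore15-1D, against 0.0403 and 0.0365 in Col (-1.21 ± 0.12, SE). The remaining falls of at least 0.95 that were well above background in both genotypes were those of AT5G04310, AT3G62110 and AT3G09540, between -1.08 and -0.96. In each of these 5 genes both ore15-1D arrays lay below both Col arrays, which the rule that named them required. Such non-overlap, in either direction, held for 77 of the 106 tested pectin genes and 16280 of the 20289 genes tested. The limma adjusted p-values of the 5 genes were between 0.00543 and 0.0252. AT4G18180 entered the test only through Col and was not well above background on either ore15-1D array, so only a bound can be given. It gave 0.118 and 0.0204 on the Col arrays, which are far apart, and was at least 6.14-fold lower in ore15-1D (limma adjusted p = 0.0485), where the bound sets the Col mean against the lowest signal that counts as well above background. From Col replicate 2 alone, a setting chosen after the data were seen, the bound was 2.56-fold.

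QRT1 and QRT3, whose known roles are in pollen, were among the falls. QRT1, a methylesterase needed to separate the pollen grains of a tetrad, gave 0.0166 and 0.0149 in ore15-1D, against 0.0277 and 0.0239 in Col (-0.71 ± 0.11, SE; limma adjusted p = 0.0121). QRT3, a polygalacturonase of the same process, gave 0.126 and 0.134 in ore15-1D, against 0.167 and 0.220 in Col (-0.57 ± 0.15, SE; limma adjusted p = 0.0399, and 0.0851 with slide as a block). Both signals were measurable on all 6 arrays and the genotypes did not overlap. Of 3 pollen markers, 1 (HAP2) was tested and did not pass against Col in either mutant. HAP2 entered the test only through ore15-1D and was at least 1.65-fold higher there than in ore15-2 (limma adjusted p = 0.0173). ANX1 was well above background on ore15-1D replicate 2 (0.0139) and ore15-2 replicate 1 (0.072) alone, and ANX2 on no array.

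Of the rises past the threshold in ore15-1D, the largest was that of AT4G20040, which is the direct neighbour of QRT3 on chromosome 4 (probe at 10847369 to 10847428, TAIR10). It gave 0.325 and 0.274 in ore15-1D, against 0.105 and 0.0973 in Col, a log2 change of 1.56 ± 0.12 (SE; limma adjusted p = 0.00491, and 0.0272 with slide as a block). AT3G61490 gave 3.08 and 3.02 in ore15-1D, against 1.41 and 0.982 in Col (1.38 ± 0.36, SE; limma adjusted p = 0.0378). Both ore15-1D arrays of each gene lay above both Col arrays, which the rule that named them required. AT3G53190 gave 9.01 and 9.91 in ore15-1D, against 5.35 and 4.03 in Col (1.03 ± 0.23, SE; limma adjusted p = 0.0248). AT3G42950 was 1.13 and 1.11 in ore15-1D, against 0.891 and 0.819 in Col (0.39 ± 0.09, SE; limma adjusted p = 0.0259). With slide as a block, AT4G20040 alone of these 4 pectin lyase-like genes passed.

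PME5, a methylesterase known for acting on wall stiffness in the shoot meristem, gave 8.14 and 7.41 on the ore15-1D arrays, against 4.85 and 2.72 on the Col arrays. Both ore15-1D arrays were the higher ones, but the Col arrays were far apart and the log2 change of 1.1 ± 0.65 (SE) did not pass (limma adjusted p = 0.227). PMR6, a pectate lyase-like protein whose loss makes plants resistant to powdery mildew, gave 8.09 and 6.72 in ore15-1D, against 6.76 and 7.18 in Col (0.08 ± 0.13, SE; limma adjusted p = 0.64), and the genotypes overlapped.

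**Figure D2:**
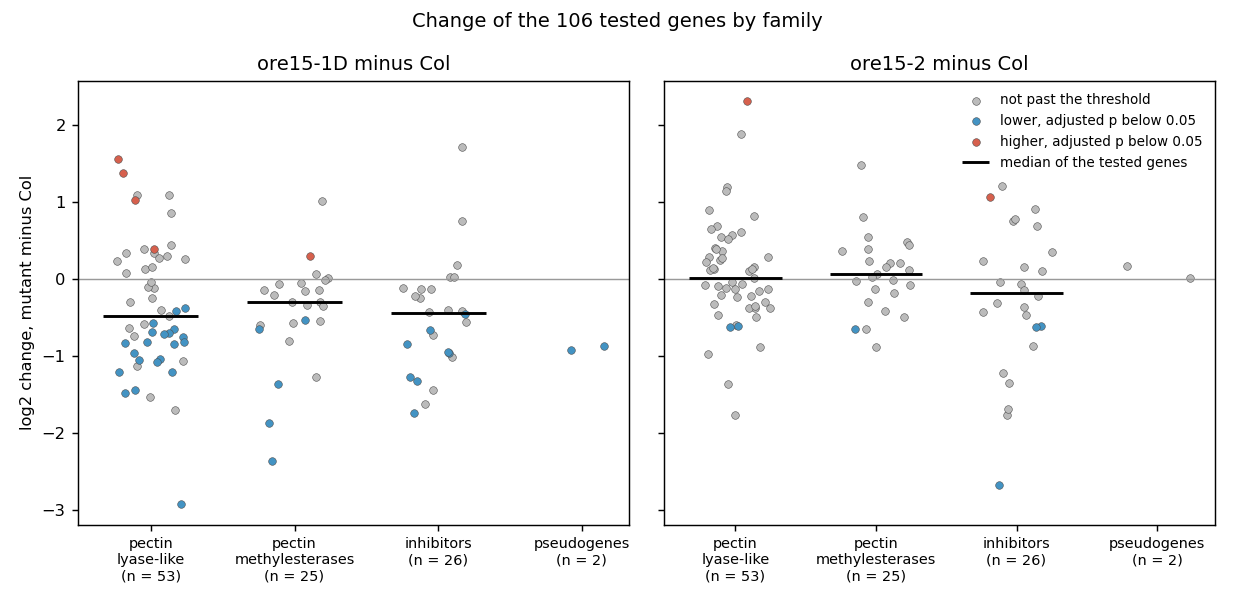
Log2 change (y axis, mutant minus Col) of each of the 106 tested genes by family, in ore15-1D (left) and ore15-2 (right); each point is 1 gene, coloured by its test, with a bar at the family's median. In ore15-1D most coloured points lie below 0, and the medians are -0.476, -0.299 and -0.447 for the pectin lyase-like genes, the methylesterases and the inhibitors.

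Of the 25 tested pectin methylesterases, 5 fell in ore15-1D and 1 rose, with a median log2 change of -0.299. The share that fell is below the 22.2% of all tested genes, and 24.0% changed in either direction, against 40.5%. AT1G23200 (probe on chromosome 1, positions 8229319 to 8229378, TAIR10) gave 0.0259 and 0.0254 in ore15-1D, against 0.135 and 0.130 in Col. That is a log2 change of -2.37 ± 0.20 (SE; limma adjusted p = 0.00518), or 5.17-fold lower, and it passed with slide as a block (adjusted p = 0.0282). The replicates lay close together and the genotypes far apart. PME41, listed in RefSeq as ATPMEPCRB (AT4G02330) and known from chilling responses, gave 0.408 and 0.288 in ore15-1D, against 1.19 and 1.34 in Col (-1.88 ± 0.39, SE; limma adjusted p = 0.0219). Its second probe was not well above background on either ore15-1D array. With slide as a block PME41 did not pass (adjusted p = 0.084). AT3G05620 was 0.0577 and 0.0607 in ore15-1D, against 0.150 and 0.154 in Col (-1.36 ± 0.14, SE; limma adjusted p = 0.00626).

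The methylesterase that rose was PME31, at 3.06 and 2.86 in ore15-1D, against 2.43 and 2.37 in Col (0.30 ± 0.08, SE; limma adjusted p = 0.0428, and 0.13 with slide as a block). PME3, a widely expressed methylesterase also known as OVERLY ZINC SENSITIVE 2, gave 17.9 and 18.4 in ore15-1D, against 25.6 and 27.0 in Col (-0.54 ± 0.09, SE; limma adjusted p = 0.0124, and 0.0516 with slide as a block). A second PME3 probe, well above background on all 6 arrays, gave 0.088 in the same comparison, so the 2 probes of PME3 differ in ore15-1D. Genes of the family with known names that did not pass were PME1 (AT1G53840; -0.14 ± 0.17, SE), PME44 (-0.57 ± 0.20, SE) and PME35, which is PME61 in RefSeq (-0.15 ± 0.09, SE), with limma adjusted p-values of 0.53, 0.0736 and 0.224.

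None of the 26 tested inhibitors rose in ore15-1D and 8 fell, with a median log2 change of -0.447; 9 had an unadjusted limma p below 0.05 in either direction. The share that fell was 30.8%, against 22.2% of all tested genes, of which 18.3% rose. That 30.8% is also the share changed in either direction, against 40.5% of all tested genes. AT3G62820 gave 2.37 and 2.46 in ore15-1D, against 5.02 and 6.76 in Col (-1.27 ± 0.25, SE; limma adjusted p = 0.0188, and 0.0699 with slide as a block). AT5G38610 gave 0.346 and 0.308 in ore15-1D, against 0.577 and 0.707 in Col (-0.97 ± 0.13, SE; limma adjusted p = 0.00965). By the rule that named them, the genotypes did not overlap in either gene. PMEI1, an inhibitor known from pollen, was well above background on both Col arrays at 0.0135 and 0.0142 and on neither ore15-1D array, so that it was at least 1.74-fold lower in ore15-1D (limma adjusted p = 0.0126, and 0.0539 with slide as a block). PMEI6 (AT2G47670), known from seed coat mucilage, did not pass (-0.43 ± 0.29, SE; limma adjusted p = 0.268), and neither did AT4G12390, which is described as pectin methylesterase inhibitor 1 (-0.40 ± 0.13, SE; limma adjusted p = 0.0615). AT2G47050, an inhibitor, and AT2G36710, a pectin lyase-like gene, are counted among the falls but entered the test only through ore15-2 and were not well above background on any ore15-1D or Col array, and no fold is given for them. Both tested pseudogenes, AT4G03926 and AT1G56490, fell, by 0.93 and 0.87 on the log2 scale.

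**Figure D3:**
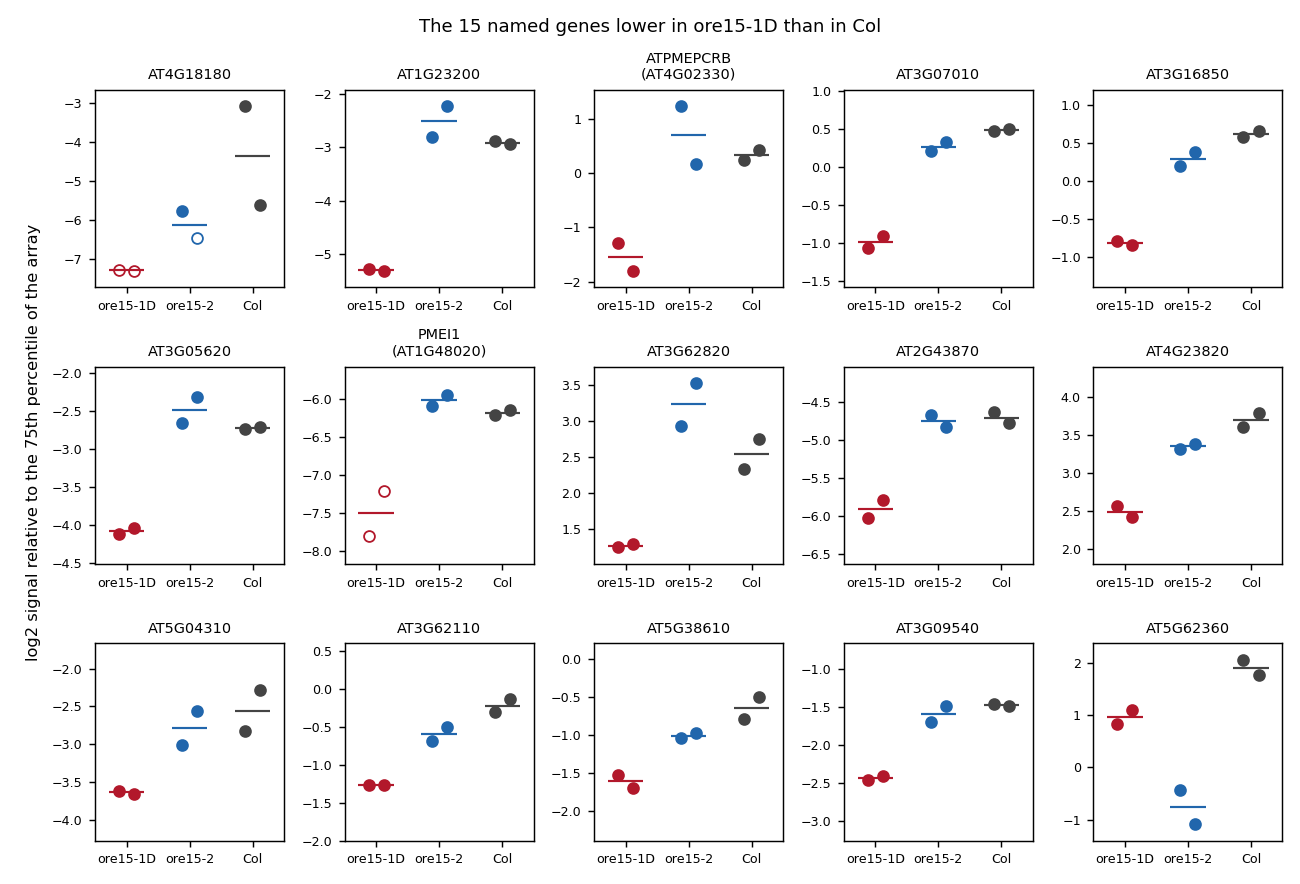
Signal on each array of the 15 named genes lower in ore15-1D than in Col; the y axis is log2 of the signal over the array's 75th percentile, each point is 1 array (open where not well above background), bars are genotype means, and vertical scales differ between panels. The genes were chosen for a lack of overlap, so both ore15-1D points lie below both Col points in all 15 panels. The ore15-2 points of AT5G62360 lie lower still.

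In ore15-2 leaves few of these genes differed from Col. Of the 106 tested genes 6 fell, 2 rose and 98 did not pass; 7.55% changed, against 3.75% of all tested genes, with 5.66% lower against 1.6% and 1.89% higher against 2.14%. The median log2 change was -0.002, against 0.01 over all tested genes, and 38 pectin genes had an unadjusted p below 0.05. The calls were not steady under other settings, though these are not all separate checks. Without an ore15-1D array the counts equal those of the ore15-2 and Col arrays alone. With slide as a fixed block they equal those without Col replicate 1. None passed with slide as a fixed block (31 with an unadjusted limma p below 0.05), with only the ore15-2 and Col arrays in the fit (32), or without either ore15-1D array (32 each), Col replicate 1 (31) or ore15-2 replicate 2 (31).

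The largest of these falls was in AT5G62360, an inhibitor gene whose probe lies on chromosome 5, positions 25041198 to 25041257 (TAIR10). It gave 0.746 and 0.469 on the ore15-2 arrays, against 4.17 and 3.40 on the Col arrays. The genotypes lay far apart, with a log2 change of -2.67 ± 0.26 (SE), 6.37-fold lower in ore15-2 (limma adjusted p = 0.022, and 0.0965 with slide as a block). On the ore15-1D arrays the same gene gave 1.77 and 2.13, between the other genotypes, a log2 change of -0.95 ± 0.26 against Col (SE; limma adjusted p = 0.0421). The 3 further probes of AT5G62360, each well above background on all 6 arrays, gave -1.938, -2.808 and -2.731 in ore15-2 and -0.929, -0.910 and -0.849 in ore15-1D. Its neighbour AT5G62350, also an inhibitor gene, gave 31.2 and 30.1 in ore15-2, against 48.5 and 46.1 in Col (-0.63 ± 0.08, SE; limma adjusted p = 0.0301).

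4 other genes fell in ore15-2, by similar and small amounts. PME3 gave 16.2 and 17.6 in ore15-2, against 25.6 and 27.0 in Col (-0.64 ± 0.09, SE; limma adjusted p = 0.0336), and here its second probe, at -0.574, gave a like value. AT1G02460 was 0.168 and 0.163 in ore15-2, against 0.258 and 0.248 in Col (-0.61 ± 0.08, SE; limma adjusted p = 0.0303). The 2 other falls were those of AT1G80170, a pectin lyase-like gene (-0.62 ± 0.10, SE; limma adjusted p = 0.0463), and AT1G23350, an inhibitor gene (-0.61 ± 0.08, SE; limma adjusted p = 0.0336). By the rule that named them, both ore15-2 arrays lay below both Col arrays in all 4 genes. Non-overlap of ore15-2 and Col, in either direction, held for 60 of the 106 tested pectin genes and 10610 of the 20289 genes tested.

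2 genes were called higher in ore15-2, and neither was well above background on a Col array. Both entered the test only through ore15-2, where they are high, so the filter favoured a rise. It did not force a call, since 12 tested genes entered in this way and 2 were called higher. Among the 85 genes measured on all 6 arrays none rose (limma). AT2G36710, a pectin lyase-like gene, gave 0.0386 and 0.0379 on the ore15-2 arrays and was not well above background on either Col array, at least 3.21-fold higher in ore15-2 (limma adjusted p = 0.0182). AT3G36659, an inhibitor gene, gave 0.0232 and 0.0262 in ore15-2 and was not well above background on either Col array, at least 2.05-fold higher (limma adjusted p = 0.0468). With normexp background correction and the 75th percentile the fitted change of each was below 0, at -1.072 and -1.334.

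**Figure D4:**
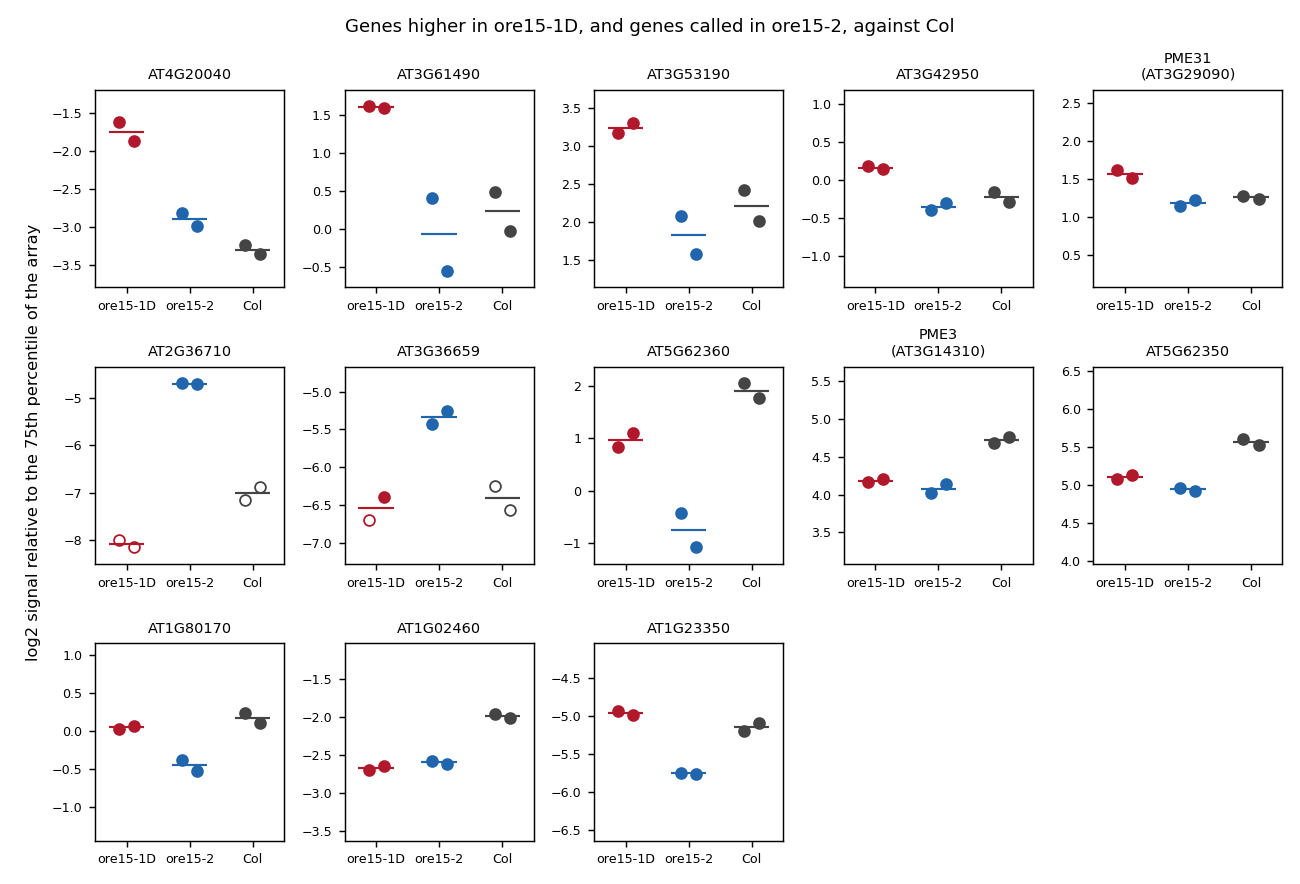
Signal on each array of the 5 genes higher in ore15-1D and the 8 genes called in ore15-2, each against Col; the y axis is log2 of the signal over the array's 75th percentile, points are arrays (open where not well above background), bars are genotype means, and vertical scales differ between panels. AT5G62360, AT5G62350, AT1G02460 and, by the probe drawn, PME3 are lower in both mutants than in Col.

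Against the same Col arrays, 5 genes passed the threshold in both mutants. The share of all tested genes that did so is not given here, so this count cannot be read as particular to the pectin genes. AT5G62360, AT5G62350 and AT1G02460 were lower in both. PME3 was lower in both by the probe used, but its second probe gave 0.088 in ore15-1D minus Col. AT2G36710 was higher in ore15-2, and its call in ore15-1D has no measured side. Since both mutants are set against the same Col arrays, their changes are not independent, and the direct comparison of the mutants gives the test of the difference. For AT1G02460 the log2 difference was -0.07 ± 0.08 (SE; limma adjusted p = 0.442), and for AT5G62350 0.16 ± 0.08 (SE; limma adjusted p = 0.132). A difference between the mutants was not detectable in these genes with 2 arrays a genotype. The 2 probes of PME3 gave different answers. The probe used, at 17.9 and 18.4 in ore15-1D and 16.2 and 17.6 in ore15-2, gave 0.11 ± 0.09 (SE; limma adjusted p = 0.326), while the second probe gave 2.02 and 1.85 in ore15-1D and 1.22 and 1.22 in ore15-2, without overlap. AT5G62360 was higher in ore15-1D than in ore15-2, by 1.72 ± 0.26 (SE; adjusted p = 0.00707).

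Set directly against ore15-2, ore15-1D was lower in 41 and higher in 13 of the 106 genes. These are 38.7% and 12.3%, against 29.7% and 26% of all tested genes, and 50.9% in either direction, against 55.7%; with quantile normalization 30 were lower and 21 higher. The 2 mutants lie on different slides, and with slide as a block, which leaves only the path through Col, no gene passed, pectin genes or others (34 pectin genes with an unadjusted limma p below 0.05). AT2G01610, an inhibitor gene, had the largest fitted difference, but leaving out 1 array moved it between 2.402 and 4.561. That of AT2G36710 stayed between -3.446 and -3.286, so the rank rests on single arrays. AT2G01610 gave 0.606 and 0.591 in ore15-1D and 0.113 and 0.0254 in ore15-2, with 0.226 and 0.147 in Col. The mutants lay on opposite sides of Col, and the difference of 3.48 ± 0.73 (SE; limma adjusted p = 0.0156) passed, while the changes against Col, 1.72 and -1.77, did not (limma adjusted p = 0.118 and 0.245). AT1G23200 and PME41 were also lower in ore15-1D than in ore15-2, by log2 differences of -2.77 ± 0.20 (SE; limma adjusted p = 0.00264) and -2.24 ± 0.39 (SE; adjusted p = 0.00966). Their ore15-2 arrays, at 0.143 and 0.212 for AT1G23200 and 2.35 and 1.12 for PME41, did not pass the test against Col.

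Many of these genes sit beside one another in the genome. In the order of RefSeq loci, 78 of the 222 genes formed 29 runs of direct neighbours, the longest of 7 genes. Of the genes in runs 30 were tested (38.5%), against 76 of the 144 genes outside runs (52.8%). In 9 runs at least 2 genes were tested. Neighbours did not always share a change: AT4G20040 rose and QRT3, next to it, fell in ore15-1D, the 1 run of these 9 that held both directions. PME41 fell while the neighbouring methylesterase AT4G02320 did not pass (0.01 on the log2 scale), and AT3G05620 fell while its neighbour AT3G05610 did not pass (-0.30). Of the 32 genes with several probes, 23 were tested; 22 further probes were detected, 19 of them with the sign of the probe used in ore15-1D minus Col and 21 within 0.5 log2 of it.

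Few genes that make pectin were past the threshold in ore15-1D, where 40.5% of all tested genes were. Of 16 tested genes of homogalacturonan synthesis, 1 rose and 2 fell, with a median log2 change of -0.023. The falls were those of GAUT4, a galacturonosyltransferase (-0.61 ± 0.13, SE; limma adjusted p = 0.0241), and CGR2, a pectin methyltransferase (-0.42 ± 0.10, SE; adjusted p = 0.0276), and the rise was that of GAUT14 (0.32 ± 0.08, SE; adjusted p = 0.0357). Of 7 genes that make the precursor sugars, 2 fell, GAE1 and RHM2, by 0.54 and 0.47 on the log2 scale, and none rose. Of 6 tested genes of rhamnogalacturonan synthesis, GALS3 rose (0.66) and ARAD2 fell (-0.70).

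Among other genes that act on pectin or sense it, falls outnumbered rises in ore15-1D. With the genes of synthesis, 15 of 53 tested genes in 8 lists fell (28.3%) and 4 rose (7.55%), against 22.2% and 18.3% of all tested genes. The 35.8% changed in either direction is below the 40.5% over all genes. All 4 tested genes of the wall-associated and wall-sensing kinases fell, with a median log2 change of -0.84. They were WAK1 and WAK2, kinases that bind pectin, and FER and THE1, receptor kinases that respond to the state of the wall. WAK1 gave 0.0414 and 0.0474 in ore15-1D, against 0.0940 and 0.126 in Col (-1.30 ± 0.31, SE; limma adjusted p = 0.0294). Of 10 tested pectin acetylesterases 4 fell and 1 rose, with a median of -0.234. Of 5 tested rhamnogalacturonate lyases 2 fell and none rose, while the median was 0.287. Of 3 subtilases known from the processing of methylesterases, SBT6.1 rose (0.26), and neither of the 2 inhibitors of polygalacturonase passed. In ore15-2 none of these 53 genes passed (limma), at 9 with an unadjusted p below 0.05.

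Markers of cell types moved in ore15-1D beside these changes, where 22.2% of all tested genes fell and 18.3% rose. All 5 leaf mesophyll markers fell in ore15-1D, with summed signals of 879 to 966 in ore15-1D, 1600 to 1730 in ore15-2 and 1380 to 1480 in Col. Of 5 xylem markers 3 fell, with sums of 5.00 to 5.30 in ore15-1D, 6.16 to 6.50 in ore15-2 and 7.48 to 8.47 in Col. Of 3 root markers 2 fell in ore15-1D, and the sums were 0.0175 to 0.0214 in ore15-1D, 0.183 to 0.272 in ore15-2 and 0.165 to 0.192 in Col. No root marker was well above background on an ore15-1D array, so the ore15-1D sums are not measured levels. Most of the other sums came from NRT2.1, at 0.1145 and 0.233 in ore15-2 and 0.1295 and 0.1183 in Col. Of 5 flower markers 2 were tested: SEP3 was higher in ore15-1D than in Col and lower in ore15-2, and PI was higher in ore15-2. AP1 was well above background on ore15-2 replicate 1 alone (0.0444), and AP3 and AG on no array. The part of these cell types in the changes of the pectin genes was not tested.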

How the data were processed

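The deposited scanner files hold linear spot intensity, with the local background already subtracted from the processed value, per the file headers. They come from Agilent Feature Extraction 11.5, which the submitters' processing notes name. The authors also deposited gene tables of log2 values, used only as an alternative since no source used here states their scaling. The deposited array-element table paired probes with loci, and RefSeq (TAIR10.1) gave symbols and gene spans.

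Control spots and spots marked as outliers were left out. From the log2 processed signal the 75th percentile of each array was subtracted, and a gene was read by its brightest probe. The tests used limma 3.58.1 in R 4.3.3 (lmFit, eBayes) over the 6 arrays together, with 3 residual and 1.80 prior degrees of freedom. P-values were adjusted by Benjamini-Hochberg over 20289 genes, with a threshold of 0.05, and measure the spread between 2 samples per genotype. The number of arrays limits the precision. "At least N-fold" divides the brighter genotype's mean by the dim probe's own signal or, where that is higher, by the lowest signal well above background on the array. The procedure was tested on simulated data with independent errors and no slide effect, so that test cannot speak for the slides of these arrays.

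The members, gene lists and tests were chosen with earlier results of these data known. Named were the 15 largest rises and falls per mutant (past the threshold, no overlap, measured on both arrays of the higher genotype), genes past the threshold in both mutants, the 10 largest differences between the mutants, and members of known function; not all are printed. QRT3, the pseudogenes, and AT4G02320 and AT3G05610 as neighbours were chosen after their values were seen. The alternatives tried were other normalizations, background filters, probe averaging, slide and replicate blocks, and leaving out arrays; normexp (offset 50) used the median spot signal. No label says that replicate numbers pair the samples. The differences between replicates correlated at -0.0898 (ore15-1D, Col), -0.0111 (ore15-1D, ore15-2) and 0.132 (ore15-2, Col). The Col arrays lie on different slides, so these values cannot settle whether the numbers mark a shared batch.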

Additional observations from a re-analysis of the deposited data

Results flagged for a closer look

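AT2G36710, a pectin lyase-like gene, was past the threshold against Col in both mutants with fitted changes of opposite sign, and the fitted log2 difference between ore15-1D and ore15-2 was -3.366 (limma adjusted p = 0.00177). It gave 0.0386 and 0.0379 on the ore15-2 arrays and was not well above background on any ore15-1D or Col array. It entered the test only through ore15-2, so the size of the difference and the direction in ore15-1D cannot be read from these arrays. What was measured is a signal at least 3.21-fold higher in ore15-2 than in Col. With normexp background correction and the 75th percentile the change in ore15-2 was -1.072.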

How the results depend on the processing

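Of the 41 changes in ore15-1D minus Col, PME3 turned above 0 under normexp background correction with the 75th percentile (0.008); the settings use the same arrays that chose the 41 genes, so a kept direction is no independent support. Of the 41 genes 31 were still called with quantile normalization, 31 with normexp and quantile normalization, 19 with slide as a fixed block and 30 of the 39 with a value in the authors' deposited table. Normexp with the 75th percentile left 0 calls among the pectin genes and 0 among all genes in all 3 comparisons by limma, with 2243, 725 and 2833 genes of the array at an unadjusted p below 0.05 (ore15-1D minus Col, ore15-2 minus Col, and ore15-1D minus ore15-2), and it moved the median of all genes to -0.257 in ore15-1D and -0.219 in ore15-2. Under it AT2G36710 (-1.072) and AT3G36659 (-1.334) in ore15-2 turned below 0. With no filter on background 63 of 222 pectin genes passed in ore15-1D (28.4%, at the 28.5% of all genes), and 1 in ore15-2, where 95 of all genes did. Slide as a fixed block left 21 pectin genes and 3853 of all genes in ore15-1D, 0 and 1 in ore15-2, and 0 and 0 between the mutants (7506 of all genes at an unadjusted p below 0.05). Quantile normalization turned the split of all genes in ore15-1D to 4659 higher and 3690 lower. In ore15-2 the replicate block left 0 pectin genes and 3 of all genes, the genotypes compared alone 0 and 0 (3372 of all genes at an unadjusted p below 0.05), and normexp with quantile normalization 1211 of all genes. With the replicate number as a block, 40 pectin genes passed in ore15-1D and 57 between the mutants. Leaving out 1 array gave 8 to 48 pectin genes in ore15-1D, 0 to 12 in ore15-2 and 24 to 63 between the mutants, and 827 to 8651, 0 to 1342 and 4773 to 11422 of all genes.

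The median log2 change in ore15-1D, -0.424 over the pectin genes, was -0.247 with quantile normalization, -0.836 with normexp and the 75th percentile, -0.07 with normexp and quantile normalization, -0.577 with no filter and -0.12 in the authors' deposited table. Over all genes it was 0.064, -0.257, 0.039, -0.246 and 0.056 in the same settings, and 0.001 with slide as a fixed block or within 1 slide. For the pectin lyase-like genes it was -0.076 with normexp and quantile normalization, -0.224 with slide as a fixed block or within 1 slide, and -0.121 in the authors' deposited table. For the methylesterases it was -0.085 with quantile normalization, -0.974 with normexp and the 75th percentile, -0.062 with normexp and quantile normalization, -0.533 with no filter and -0.07 in the authors' deposited table. For the inhibitors these 5 values were -0.222, -1.072, -0.072, -0.617 and -0.117, and it was -0.404 over genes well above background on all 6 arrays and -0.423 with slide as a block or within 1 slide. In ore15-2 the median over the pectin genes was -0.048 with quantile normalization, -0.538 with normexp and the 75th percentile, -0.084 with no filter, -0.064 with the stricter filter and -0.062 with slide as a block or within 1 slide. Over all genes the ore15-2 median was -0.001, -0.219, -0.014, 0.0 and -0.013 in the same settings. Without 1 array the median in ore15-1D ranged from -0.52 to -0.316 over the pectin genes, from -0.604 to -0.224 over the pectin lyase-like genes, from -0.418 to -0.227 over the methylesterases and from -0.503 to -0.413 over the inhibitors, and in ore15-2 from -0.062 to 0.076 over the pectin genes. The cause of these shifts was not tested.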
